A study of Mus musculus with 16 samples.

Results

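The carbonic anhydrases are the enzymes that interconvert carbon dioxide and bicarbonate, and the mRNA of 9 of them (Car1, Car2, Car3, Car4, Car5a, Car8, Car12, Car14 and Car15) was followed across liver and kidney of the same mice. These 9 genes were chosen by name from the 32989 rows of the deposited tables. Their levels in both organs and the liver change of Car1 were already known when they were chosen, so both are given below as descriptions with no test. Another 7 carbonic anhydrase genes in the tables (Car5b, Car6, Car7, Car9, Car10, Car11 and Car13) are described more briefly.

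Carbonic anhydrases speed the hydration of carbon dioxide to bicarbonate and a proton. Cells use the reaction to move acid and base across membranes, to carry carbon dioxide in blood, and to supply bicarbonate to carboxylating enzymes. In the kidney, cytosolic and membrane-bound forms serve bicarbonate reabsorption and acid secretion along the tubule. In the liver, the mitochondrial form supplies bicarbonate for urea synthesis and gluconeogenesis, while Car3, the most abundant form there, is a poor hydratase that is also known from muscle and fat. Car8 has lost the zinc-binding residues needed for catalysis and binds the inositol trisphosphate receptor.

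The samples were livers and kidneys of male C57BL/6J mice kept for 85 weeks in either the LD condition (lights on from 8:00 to 20:00) or the ADV condition, in which the light-dark cycle was advanced by 8 h every 4 days. The mice were 97 weeks old. Each condition had 4 mice, and both organs of each mouse were sequenced, which gave 16 poly(A)-selected stranded libraries: L63, L65, L86 and L104 from LD, and A75, A91, A94 and A115 from ADV. Organs were taken once, 13 to 16 h after the last light onset, so the values hold for that part of the cycle, and in bulk tissue a change in the number of cells of a type cannot be told apart from a change in mRNA per cell.

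Levels are FPKM, fragments per kilobase of exon scaled to 1000000 fragments of the library, and can be compared between genes because they are per length. Libraries held 21092501 to 24285055 fragments on genes in liver and 15688495 to 18043306 in kidney. The kidney library of A115 stood apart from the rest. Mitochondrial genes gave 33.8% of its fragments, against 15.7 to 18.0% in the LD kidneys and 9.43 to 13.1% in the other 3 ADV kidneys. Its mean correlation with the other kidneys was 0.858, against 0.961 to 0.964 for the LD kidneys and 0.932 to 0.956 for the other 3 ADV kidneys. The liver library of A94 had the lowest mean correlation among the livers, 0.941. The hepatocyte marker genes (4 of 5 listed ones had a row) summed to between 52536 and 65531 FPKM in every liver and to at most 57.9 FPKM in the kidneys. The 8 proximal tubule markers summed to 2130 to 3096 FPKM in 7 kidneys and to 643 FPKM in the kidney of A115. The kidney log2 differences of the members and the counts over gene lists are therefore given with and without A115. Levels and ratios between organs include it. Libraries were sequenced by 2 providers on different instruments, and which library went to which is not given in the sources used here.

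Of the 9 genes, 4 lie on mouse chromosome 3 (mm10). Car1 (chr3:14766214-14778460, minus strand), Car3 (chr3:14863538-14872381, plus strand) and Car2 (chr3:14886426-14900770, plus strand) are neighbours, with 85.1 kb between Car1 and Car3 and 14.0 kb between Car3 and Car2. Car13 lies on the other side of Car1, and the span from Car13 to Car2 is 259 kb. Car14 lies elsewhere on the chromosome (chr3:95897800-95904639, minus strand). The others are Car8 (chr4:8141493-8239041, minus strand), Car5a (chr8:121916135-121944912, minus strand), Car12 (chr9:66713686-66766845, plus strand), Car4 (chr11:84957754-84966054, plus strand) and Car15 (chr16:17835276-17838186, minus strand). By GENCODE annotation of the same build, 65.7% of the exon bases of Car15 are also exon of Gm20518 on the same strand, a gene with no row in the tables used here, so fragments counted for Car15 may belong to either. The exons of Car14 and Car5a overlap genes on the opposite strand over 17.5% (Aph1a) and 23.5% (BC048644) of their bases.

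Promoters of 5 of the 9 genes (Car4, Car5a, Car12, Car14 and Car15) were in the RefSeq table for GRCm38.p6. Shown here are the 250 bases before the transcription start of Car14, which had the smallest p of the genes tested in liver, and of Car15, the kidney gene whose result turned on 1 library. The first lies at chr3:95904686-95904935 and the second at chr16:17838187-17838436, both on the minus strand and written 5′ to 3′. Capitals mark the 1 match to ACGTG, in Car14 and on the opposite strand; Car15 held none.
Car14: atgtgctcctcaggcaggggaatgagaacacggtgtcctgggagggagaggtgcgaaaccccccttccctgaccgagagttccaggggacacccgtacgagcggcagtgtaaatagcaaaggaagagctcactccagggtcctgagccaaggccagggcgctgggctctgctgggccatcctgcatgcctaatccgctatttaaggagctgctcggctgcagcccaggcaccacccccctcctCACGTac
Car15: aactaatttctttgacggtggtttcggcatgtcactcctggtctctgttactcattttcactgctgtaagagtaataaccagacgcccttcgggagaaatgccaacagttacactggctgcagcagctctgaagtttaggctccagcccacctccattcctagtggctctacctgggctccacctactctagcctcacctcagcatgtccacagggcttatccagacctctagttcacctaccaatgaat
Both strands of the 5 promoters, each from 250 bases before to 50 after the start, were searched for CACGTG (the core of the E-box that clock proteins bind), TTATGTAA (a D-box form), AGGTCA (a nuclear receptor half-site), TATAAA, and ACGTG, which overlaps CACGTG. None of the 5 held CACGTG, TTATGTAA or AGGTCA, which occurred in 7.15%, 0.938% and 16.3% of all 32851 promoters of that length. ACGTG, found in 19.6% of all promoters, occurred once in Car14 and once in Car4, where it lay after the start together with TATAAA, found in 13.6%. No match says only that these letters are not in this window.

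The levels of the 9 genes set the organs apart. In liver, Car3 made up 91.8 to 96.6% of the summed FPKM of the 9 genes in every mouse. In kidney, Car3 was 0.926 to 7.53% of the sum, and Car2 or Car4 led in each mouse. Among LD livers the order was Car3 (1913 ± 398 FPKM, SD, n = 4), Car5a (42.2 ± 4.53), Car8 (15 ± 1.72), Car14 (9.50 ± 1.44), Car1 (6.57 ± 0.388), Car2 (1.52 ± 0.187) and Car15 (0.175 ± 0.134), and the ranges of neighbours in this order did not overlap. Car12 and Car4 were last, at 0 to 0.0110 FPKM and at 0 in all 4 LD livers. In ADV livers the means of Car14 and Car8 changed places, and the ranges of Car14 and Car8, of Car1 and Car2, and of Car4 with both Car15 and Car12 overlapped.

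Among LD kidneys the order was Car2 (146 ± 20.2 FPKM, SD, n = 4), Car4 (121 ± 10.4), Car15 (49.1 ± 10.5), Car12 (42.6 ± 5.79), Car14 (38.2 ± 6.55), Car3 (12 ± 4.58), Car8 (1.82 ± 0.244) and Car5a (1.25 ± 0.257), with Car1 at 0. The ranges of Car2 and Car4 overlapped, as did those of Car15, Car12 and Car14, and the other neighbours did not. In ADV kidneys, A115 included, all neighbours overlapped except Car3 with Car8 and Car5a with Car1.

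**Figure D1:**
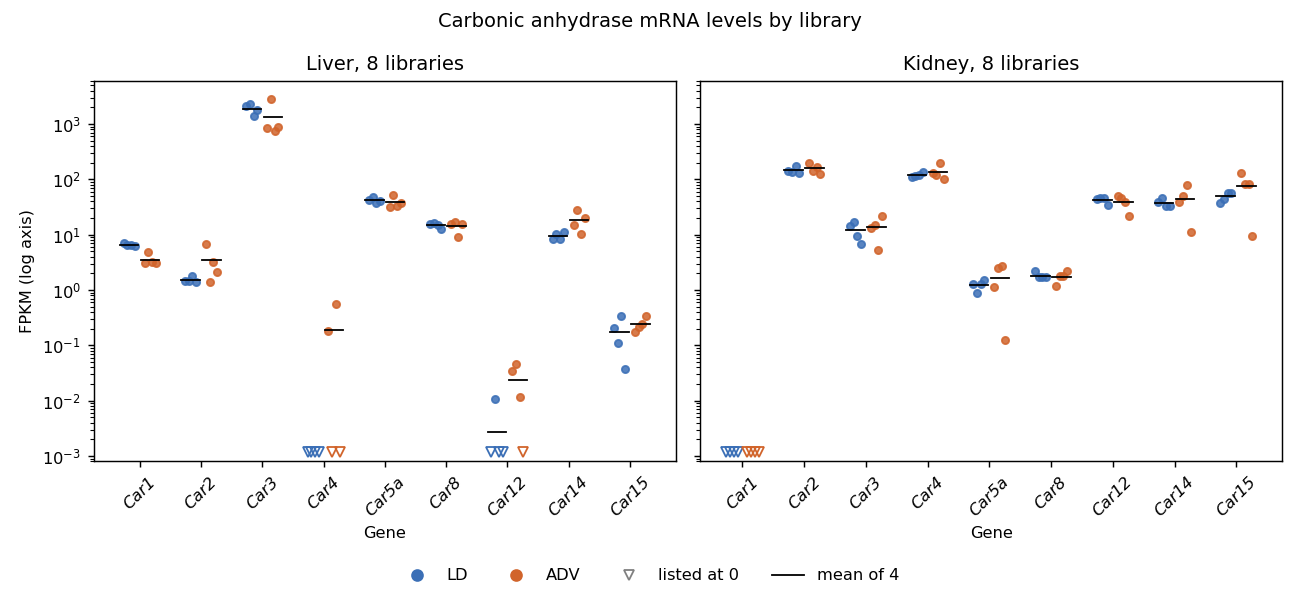
FPKM (log axis) of the 9 carbonic anhydrases in 8 livers (left) and 8 kidneys (right); points are libraries, LD in blue and ADV in orange, bars are means of 4 libraries, and open triangles at the bottom mark libraries listed at 0. Car3 sits at 762 to 2804 FPKM in liver and at 5.34 to 22.2 FPKM in kidney, and Car1 is listed at 0 in all 8 kidneys.

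Compared within each mouse, Car1, Car3, Car5a and Car8 were higher in liver in 8 of 8 mice, and Car2, Car4, Car12 and Car15 were higher in kidney in 8 of 8. The liver-to-kidney ratio of Car3 ran from 39.8 in A115 to 261 with a median of 145, and that of Car8 from 4.97 to 13.1 with a median of 8.02. For Car5a the lowest ratio was 12.4 and the median 28.3. The kidney value of Car5a in A115 rested on 3 fragments. Car1 had no fragment in any kidney; against 3 fragments per library, a limit of 0.129 to 0.149 FPKM that covers counting error only, it was at least 22.2-fold higher in the liver of every mouse. The kidney-to-liver ratio of Car2 ran from 28.1 in A75 to 103, with a median of 94.1. Against the same limit where a liver held 3 fragments or fewer, Car4 was at least 347-fold, Car12 at least 626-fold and Car15 at least 28.6-fold higher in kidney. The lowest values of Car12 and Car15 were both those of A115, and their medians over the 8 mice were 1203 and 361. Car14, a transmembrane form with its active site outside the cell, was the 1 member whose order differed between mice: its kidney-to-liver ratio was above 1 in 7 of 8 mice, with a median of 3.5 and a highest value of 7.70, and was 0.565 in A115.

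The first comparison was ADV against LD in liver. Of the 9 genes, 6 passed the filter on low values (a mean above 0.5 fragments per 1000000 over the 8 livers), and Car4, Car12 and Car15 did not. Car1 and Car3 had lower means in ADV, Car2 and Car14 higher ones, and Car5a and Car8 differed little. By limma on log2(FPKM + 0.1) with Benjamini-Hochberg adjustment over 12835 genes, 0 of the 5 genes tested passed an adjusted p of 0.05, as 1 of 12835 genes (0.00779%) did, and 1 of the 5 (Car14) had an unadjusted p below 0.05, as 11.8% of all genes did. On that log2 scale, 2 of the 5 were higher and 3 lower in ADV with a median difference of -0.11, while the median of all genes tested was 0.096 and 65.7% of them were higher.

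Car1, a cytosolic form best known from red blood cells and the colon, measured 7.12, 6.53, 6.43 and 6.21 FPKM in the livers of L63, L65, L86 and L104, and 3.14, 4.78, 3.19 and 3.06 FPKM in those of A75, A91, A94 and A115. Every ADV liver was below every LD liver, and A91 was the ADV liver nearest to them. The ADV mean was 0.539 times the LD mean, a log2 difference of -0.90 (SE 0.15). Car1 was the 1 gene of the 6 whose groups did not overlap. Over all genes tested 8.84% had groups that did not overlap and 1.89% had every ADV liver below every LD liver. The contrast was known when the gene was chosen, so nothing is read from it. The erythroid markers (8 of 10 with a row) summed to 232 to 300 FPKM in LD livers and 213 to 430 FPKM in ADV livers, and these sums were mostly globins. Alas2, the heme synthesis enzyme of the list, was at 53.4 to 73.1 FPKM in LD livers, at 37.4, 36.5 and 41.8 FPKM in A75, A94 and A115, below every LD liver, and at 57.2 FPKM in A91. In the kidneys, the same markers summed to 117 to 844 FPKM while Car1 was at 0. Of the 6 periportal hepatocyte markers, Pck1 alone was lower in every ADV liver (555 to 763 FPKM) than in any LD liver (825 to 1330 FPKM), and Hal was higher in A75, A91 and A115 (70.5, 73.1 and 98.8 FPKM) than in any LD liver (43.0 to 53.3 FPKM). Cdh1, also of that list, was higher in A75, A94 and A115 (4.51, 5.20 and 3.90 FPKM) than in any LD liver (1.17 to 1.61 FPKM) and lower in A91 (0.901 FPKM). None of the 8 pericentral markers had groups apart: their sum was 5710 to 6622 FPKM in LD and 4486 to 5744 FPKM in ADV livers, mostly Cyp2e1, while Glul was above the LD livers in A75, A94 and A115. Of the 4 fibroblast markers, Dcn and Col1a1 were higher in every ADV liver than in any LD liver, with Dcn at 103.6 to 119 FPKM in LD and 147 to 212 FPKM in ADV livers. Of the 6 leukocyte markers, Ptprc and Adgre1 were higher in every ADV liver than in any LD liver, with Adgre1 at 3.83 to 5.81 FPKM in LD and 6.30 to 13.9 FPKM in ADV livers. Their part in the levels of Car1 and the other genes was not tested.

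Car3 was the most abundant member in liver. It measured 2159, 2285, 1398 and 1810 FPKM in LD livers (L63, L65, L86, L104) and 855, 2804, 762 and 882 FPKM in ADV livers (A75, A91, A94, A115). In the ADV group 3 livers lay below every LD liver, while A91 held the highest value of all 8. The log2 difference was -0.74 (SE 0.39, adjusted p = 0.467 by limma), with a 95% confidence interval of -1.61 to 0.14. Without A91 it was -1.18 (SE 0.18, adjusted p = 0.082). Skeletal muscle markers, from a tissue in which Car3 is also abundant, summed to 0 in all LD livers and to at most 0.366 FPKM in ADV livers, where Car3 was at 762 FPKM or more. Of the 8 markers of fat cells, which also hold much Car3, Adipoq was at 2.10 FPKM in A75 and at or below 0.105 FPKM in the other 7 livers. Cidec and Cfd were highest in A91 (18.1 and 7.79 FPKM), and Fabp4 was highest in A94 (64.7 FPKM). Lep and Plin1 were at or below 0.277 FPKM and Adrb3 at or below 0.600 FPKM in all livers. Pck1, also on the periportal list, was at 825 to 1330 FPKM in LD and 555 to 763 FPKM in ADV livers. The part of these markers in the Car3 values was not tested.

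Car14 had a higher mean in ADV. Its liver levels were 8.33, 10.3, 8.26 and 11.1 FPKM in L63, L65, L86 and L104, and 14.9, 27.6, 10.4 and 19.9 FPKM in A75, A91, A94 and A115. Each ADV liver was above the LD mean and 3 of them were above every LD liver, while A94 lay within the LD range. The log2 difference of 0.85 (SE 0.27, 95% confidence interval 0.26 to 1.45) had an unadjusted p of 0.00998 and an adjusted p of 0.326 by limma, and an exact two-sided permutation test (70 ways to divide the 8 mice) gave p = 0.057. Without A94 the log2 difference was 1.09 (adjusted p = 0.127), and without A91 it was 0.62 (adjusted p = 0.229).

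Car2, the fast cytosolic form found in many cell types, was low in liver. It measured 1.43, 1.48, 1.79 and 1.37 FPKM in LD livers (L63, L65, L86, L104) and 6.92, 1.39, 3.26 and 2.12 FPKM in ADV livers (A75, A91, A94, A115). A75, A94 and A115 were above every LD liver and A91 was within the LD range. The log2 difference was 0.88 (SE 0.40, 95% confidence interval -0.02 to 1.79, adjusted p = 0.432 by limma), falling to 0.47 without A75. The 3 livers with more Car2 had higher sums for markers of bile duct epithelium, a cell type that expresses Car2, though not in the order of Car2: the 5 markers (Krt19, Krt7, Epcam, Sox9 and Cftr, a list added after the Car2 values were seen) summed to 2.37 to 3.11 FPKM in LD livers, 2.01 FPKM in A91, 4.39 FPKM in A94, 9.93 FPKM in A115 and 18.8 FPKM in A75. The sum was led by Krt19, at 14.2 FPKM in A75, 6.31 FPKM in A115 and 0.815 FPKM in A94, the last within the LD range of 0.638 to 1.29 FPKM although A94 was second in Car2. Epcam was above the LD livers in A75, A94 and A115, Sox9 lay within the LD range in A75 and A115, and Cftr lay within it in A115. Their part in the Car2 values was not tested.

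**Figure D2:**
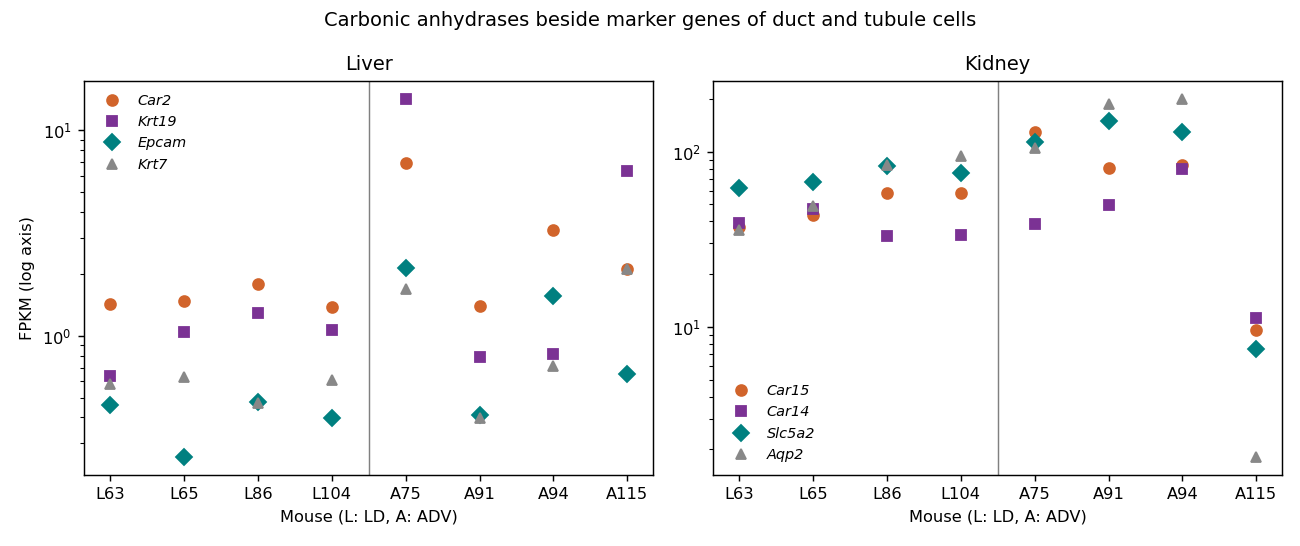
FPKM (log axis) by mouse; left, liver Car2 beside the bile duct markers Krt19, Epcam and Krt7; right, kidney Car15 and Car14 beside Slc5a2 (proximal tubule) and Aqp2 (principal cells); the vertical line separates LD from ADV mice. A75 has the highest liver Car2 (6.92 FPKM) and Krt19 (14.2 FPKM), and the kidney of A115 is lowest in all 4 kidney genes.

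Car5a, the mitochondrial form, was at 42.9, 47.8, 36.8 and 41.1 FPKM in LD livers and at 31.4, 53.2, 33.7 and 37.8 FPKM in ADV livers, in the mouse order used above. The LD range lay inside the ADV range, with A91 highest and A75 lowest, and the log2 difference was -0.14 (SE 0.16, 95% confidence interval -0.50 to 0.23, adjusted p = 0.720 by limma), or -0.29 without A91 (adjusted p = 0.265) and -0.04 without A75. Car8 was at 15.9, 16.6, 14.7 and 12.7 FPKM in LD livers and at 15.3, 16.9, 8.92 and 15.8 FPKM in ADV livers. A94 alone lay below the LD range of Car8, and the log2 difference was -0.11 (SE 0.20, 95% confidence interval -0.55 to 0.34, adjusted p = 0.826 by limma); without A94 it was 0.10. The 6 leukocyte markers summed to 622 FPKM in the liver of A94, against 89.9 to 141 FPKM in LD livers and 125 to 183 FPKM in the other ADV livers, and their part in this value was not tested. The 3 members under the filter stayed near 0: Car4 was at 0 in all LD livers, in A91 and in A115, and at 0.182 FPKM in A75 and 0.562 FPKM in A94; Car12 was at or below 0.0467 FPKM; and Car15 was between 0.0372 and 0.347 FPKM.

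Across members, A91 differed from the other ADV livers. It held the highest ADV value of 5 of the 6 genes above the filter and the lowest of Car2. For Car1 and Car3 it lay nearer to the LD livers than the other ADV mice did, and for Car14 it lay farther from them.

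**Figure D3:**
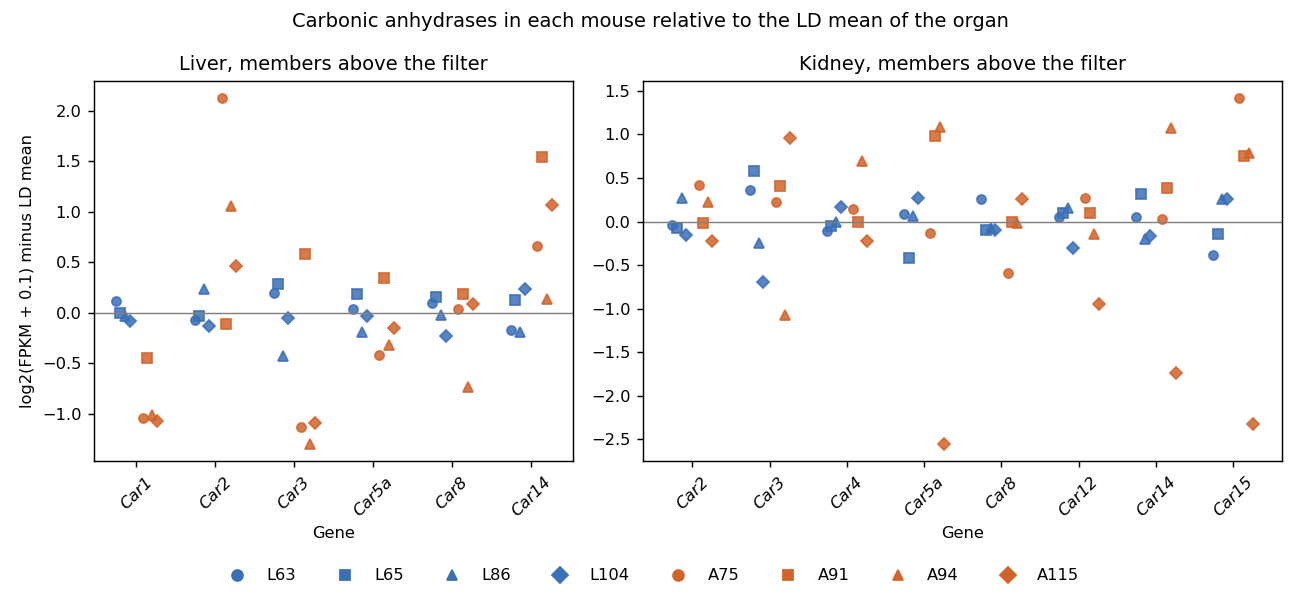
log2(FPKM + 0.1) of each mouse minus the LD mean of the same organ, for the 6 genes above the filter in liver (left) and the 8 in kidney (right); LD mice in blue, ADV mice in orange, 1 marker shape per mouse within a condition. In liver the ADV mice lie below the LD mice for Car1; in kidney the ADV diamond (A115) is the lowest ADV point for 6 of 8 genes.

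The second comparison was ADV against LD in kidney, where 8 of the 9 genes passed the filter and Car1 did not. None of the 8 passed an adjusted p of 0.05 by limma, with 0 of 14452 genes (0.0%) past it and 448 of them (3.1%) at an unadjusted p below 0.05; limma-voom on the recovered fragments also called 0 genes, with 410 at an unadjusted p below 0.05. None of the 8 had an unadjusted p below 0.05, and in 0 of the 8 were the groups apart, as they were for 2.8% of all genes tested. By log2 difference, 4 of the 8 were higher and 4 lower in ADV, with a median of 0.020, against -0.024 for all genes tested. Car5a and Car14 were counted as lower, though their mean FPKM was higher in ADV. Without A115, 6 of the 8 were higher and 2 lower by log2 difference, with a median of 0.24, against 0.20 for all genes.

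The abundant forms of the proximal tubule and collecting duct came first. Car2 was at 141, 138, 176 and 130 FPKM in LD kidneys (L63, L65, L86, L104) and 194, 143, 170 and 124 FPKM in ADV kidneys (A75, A91, A94, A115). Its groups overlapped, with a log2 difference of 0.10 (SE 0.18, 95% confidence interval -0.32 to 0.52), or 0.21 without A115. Car4, a lipid-anchored form on the surface of tubule cells, was at 111, 116, 120 and 135 FPKM in LD and 133, 120, 195 and 103 FPKM in ADV kidneys. A94 was above and A115 below the LD range of Car4, and the log2 difference was 0.15 (SE 0.21, 95% confidence interval -0.32 to 0.63), or 0.28 without A115. Car12, a transmembrane form, was at 44.0, 45.4, 46.9 and 34.1 FPKM in LD and 51.1, 45.4, 38.3 and 21.8 FPKM in ADV kidneys. A115 was the lowest of the 8 for Car12 and A75 the highest, and the log2 difference was -0.18 (SE 0.27, 95% confidence interval -0.80 to 0.44), or 0.08 without A115. All 8 genes had an adjusted p of 0.9999 in this fit.

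Car15, a lipid-anchored form of the mouse kidney, turned on A115. It measured 36.9, 43.8, 57.9 and 57.9 FPKM in LD kidneys and 129, 81.1, 83.6 and 9.57 FPKM in ADV kidneys, in the same mouse order. A75, A91 and A94 were above every LD kidney and A115 was below every one. With all 8 kidneys the log2 difference was 0.16 (SE 0.74, 95% confidence interval -1.55 to 1.87). Without A115 it was 0.98 (SE 0.21, 95% confidence interval 0.50 to 1.47, adjusted p = 0.0204 by limma), and Car15 was the 1 member of 8 that passed. In that fit 18.9% of all 14452 genes passed, 16.2% with ADV higher, and 24.8% had the 3 ADV kidneys above every LD kidney; the median of all genes was 0.20. After scaling by the median ratio, also without A115, the log2 difference was 0.79 (adjusted p = 0.0334 by limma), with 16% of all genes past the threshold. Of these 2310 genes 1165 were higher in ADV, against 2338 of 2726 without that scaling, so the excess of higher genes depended on the scaling. In the fit without that scaling, leaving out A75, A91 or A94 in place of A115 gave Car15 log2 differences of -0.26, -0.04 and -0.05. Of the 8 proximal tubule markers, 3 (Slc34a1, Slc5a2 and Aqp1) were also above every LD kidney in A75, A91 and A94, 0 were below, and 5 overlapped the LD kidneys, while all 8 were below every LD kidney in A115. Slc5a2 was at 62.2 to 82.4 FPKM in LD kidneys, 113, 150 and 129 FPKM in A75, A91 and A94, and 7.51 FPKM in A115; among the 3 ADV kidneys it was lowest in A75, where Car15 was highest. Slc7a13 was at 281, 520 and 301 FPKM in A75, A91 and A94, against 440 to 643 FPKM in LD kidneys. Of the 5 principal cell markers, 3 (Aqp2, Aqp3 and Avpr2) were above every LD kidney in A75, A91 and A94 as well. The share of mitochondrial fragments was lower in these 3 kidneys (9.43 to 13.1%) than in any LD kidney. The part of tubule and collecting duct content and of mitochondrial fragments in the Car15 values was not tested.

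Car14 was at 39.3, 47.1, 33.0 and 33.6 FPKM in LD kidneys and 38.7, 49.6, 80.0 and 11.2 FPKM in ADV kidneys. A94 was the highest and A115 the lowest, and the log2 difference was -0.06 (SE 0.54), or 0.50 (SE 0.24, adjusted p = 0.160 by limma) without A115. The 6 leukocyte markers summed to 1662 FPKM in the kidney of A94, against 172 to 504 FPKM in LD and 153 to 449 FPKM in the other ADV kidneys. Their part in the kidney values of A94 was not tested. Car3 was at 14.5, 17.0, 9.55 and 6.93 FPKM in LD and 13.2, 15, 5.34 and 22.2 FPKM in ADV kidneys. Here A115 was the highest of the 8 and A94 the lowest, with a log2 difference of 0.13 (SE 0.46), or -0.15 without A115. The low-level members gave wide intervals or small differences: Car5a was at 0.895 to 1.51 FPKM in LD and 0.126 to 2.72 FPKM in ADV kidneys (log2 difference -0.15, SE 0.75, or 0.65 without A115), and Car8 at 1.69 to 2.19 FPKM in LD and 1.17 to 2.18 FPKM in ADV kidneys (-0.09, SE 0.23, or -0.21 without A115).

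The kidney of A115 held the lowest ADV value of 6 of the 8 members and the highest of Car3 and Car8. All 5 principal cell markers were below every LD kidney in A115, with a sum of 20.5 FPKM against 110 to 200 FPKM. Of the 9 intercalated cell markers, 7 were below every LD kidney and 2 (Atp6v1g3 and Atp6v0d2) above, with a sum of 67.5 FPKM against 99.4 to 113 FPKM. Of the 4 thick ascending limb markers, 3 were below every LD kidney, and Slc12a1 lay within the LD range. The 4 fibroblast markers summed to 124 FPKM in A115, against 39.4 to 70.7 FPKM in LD kidneys, though A75 and A94 were also high at 118 and 150 FPKM.

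**Figure D4:**
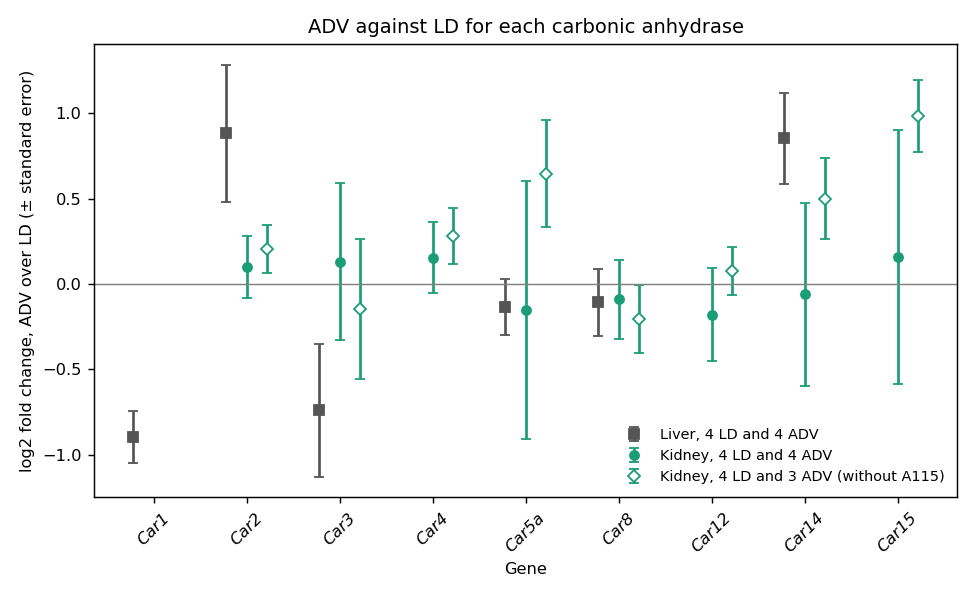
log2 fold change of ADV over LD with its standard error for each carbonic anhydrase, in liver (grey squares, 4 LD and 4 ADV), in kidney (filled green circles, 4 LD and 4 ADV) and in kidney without A115 (open diamonds, 4 LD and 3 ADV). Leaving out A115 moved Car15 from 0.16 to 0.98 and narrowed its standard error from 0.74 to 0.21.

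The third comparison asked whether the ADV effect differed between organs, in a model over all 16 libraries, for the 5 members that passed the filter in both. The model had no term for the mouse, so its standard errors and intervals treat both organs of a mouse as separate libraries. The kidney effect minus the liver effect was -0.78 for Car2 (SE 0.48), 0.87 for Car3 (SE 0.65), -0.02 for Car5a (SE 0.81), 0.02 for Car8 (SE 0.31) and -0.91 for Car14 (SE 0.64) on the log2 scale. None of the 5 passed (adjusted p = 0.9999 for each by limma), with 0 of 14379 genes (0.0%) past the threshold, 536 of them at an unadjusted p below 0.05 (3.73%), and 0 by limma-voom. The intervals were wide: for Car14 the 95% confidence interval of the difference ran from -2.27 to 0.45, and for Car3 from -0.51 to 2.25. Without both organs of A115 the differences were -0.82 for Car2, 0.47 for Car3, 0.78 for Car5a, -0.04 for Car8 and -0.28 for Car14, and 0 of the 5 passed, beside 2.89% of all genes.

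The other 7 carbonic anhydrases were low in liver. Car5b, a second mitochondrial form, was at 0.641, 0.590, 0.497 and 0.504 FPKM in LD livers and 0.639, 1.14, 1.11 and 1.08 FPKM in ADV livers. Its groups overlapped by A75 alone, and the log2 difference was 0.71 (SE 0.21, adjusted p = 0.322 by limma). Car9, a hypoxia-inducible transmembrane form that bile ducts also express, was at 2.54 FPKM in the liver of A75 and at or below 0.321 FPKM in the other livers. Car5b, Car7, Car9 and Car13 passed the filter in liver, the last 3 only through their ADV libraries, so their direction is not counted, and 0 of the 4 passed an adjusted p of 0.05, beside 0.00779% of all genes. In kidney, Car5b was at 12.1 to 19.2 FPKM. Car9 was at 3.26 to 9.33 FPKM in 7 kidneys and at 0.0268 FPKM in A115. Car13 was at 7.17 FPKM in A115 and at 1.24 to 2.83 FPKM in the others. By log2 difference, 2 of the 5 that passed the filter (Car5b, Car7, Car9, Car11 and Car13) were higher in ADV, with 0 called. Car7, Car9 and Car11 were lower on that scale, though their mean FPKM was higher in ADV. Without A115 all 5 were higher, with 0 called and a median log2 difference of 0.34, against 0.20 for all genes. Car6 and Car10 were at or below 0.122 FPKM in both organs.

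Genes that work with the carbonic anhydrases were counted from 2 further lists. Of 26 genes of renal acid-base transport, 25 passed the filter in kidney, and 0 passed an adjusted p of 0.05. By log2 difference 7 were higher and 18 lower in ADV. Of those counted as lower, Rhbg, Rhcg, Slc4a9, Slc38a3 and Atp6v1b2 had a higher mean FPKM in ADV. The median log2 difference of the 25 genes was -0.17, against -0.024 for all genes. The smallest p among them belonged to Pck1, the gluconeogenic enzyme of the proximal tubule (685 ± 93.4 FPKM in LD, 418 ± 117 FPKM in ADV, SD, n = 4, log2 difference -0.75), Atp6v1a, a proton pump subunit (-0.28), and Slc4a8, a sodium-driven bicarbonate exchanger (0.45). Without A115, 13 of the 25 were higher and 12 lower, with a median of 0.025 against 0.20 for all genes, and 7 passed, 6 of them higher, beside the 18.9% of all genes given above; Pck1 passed with a log2 difference of -0.55 (adjusted p = 0.043 by limma). In liver, 15 of the list passed the filter with 0 called. Of these, Slc26a4 passed only through ADV libraries. By log2 difference, 10 of the other 14 were higher and 4 lower, beside 65.7% higher among all genes. Their median was 0.13, against 0.096 for all genes, and Rhbg, counted as lower, had a higher mean FPKM in ADV. Slc4a4, the sodium bicarbonate cotransporter, had the smallest p there, at 6.58 ± 0.553 FPKM in LD and 9.04 ± 1.09 FPKM in ADV livers (SD, n = 4, log2 difference 0.45, adjusted p = 0.296 by limma).

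Of 13 genes for bicarbonate-using carboxylases and the urea cycle, which draw on the product of Car5a, 12 had a row and passed the filter in liver. There 1 was higher and 11 were lower in ADV, 0 passed an adjusted p of 0.05, and the median log2 difference was -0.18, against 0.096 for all genes. Pccb, a propionyl-CoA carboxylase subunit, and Acacb, an acetyl-CoA carboxylase, were among the 3 with the smallest p, with log2 differences of -0.21 and -0.41. Cps1, the first enzyme of the urea cycle, was at 651 ± 46.8 FPKM in LD and 596 ± 160 FPKM in ADV livers (SD, n = 4). In kidney, 9 of the list passed with 0 called. Of these, 1 passed only through ADV libraries, and of the other 8, 1 was higher and 7 lower, beside 46.4% higher among all genes. The median log2 difference of the 8 was -0.22, against -0.024 for all genes. Mccc1 and Ass1, among the 3 with the smallest p, had log2 differences of -0.28 and -0.69, or -0.15 and -0.22 without A115. Without A115, 4 of the 8 were higher and 4 lower, with a median of -8.1e-05 against 0.20 for all genes. In that fit 0 of the 9 passed, beside 18.9% of all genes.

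For each member, genes whose levels followed it most closely across the 8 libraries of an organ were listed after subtracting each condition's mean, as a description over libraries that share depth and tissue composition. In liver the closest to Car1 were Hao2, a peroxisomal oxidase (Pearson r = 0.977), Upp2, a uridine phosphorylase (0.973), and Ntrk2 (0.964). Car3 was followed by Gstz1, an enzyme of tyrosine breakdown (0.983), and Atg3 (0.976), and Car5a by Mgmt (0.984) and Clstn3 (0.973). The closest to Car2 were Fgb (0.983), Synpo2 (0.982) and Ctse (0.981), to Car8 Nthl1 (0.981), Nox4 (0.974) and Nxpe2 (0.970), and to Car14 Tbc1d12 (0.973), Lypla1 (0.972) and Srr (0.970).

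In kidney the coefficients were higher, and 1 library, A115, was far from the rest. Car15 was closest to Cib1, Kctd11 and Trmt112, each at 0.999, which became 0.996, 0.986 and 0.985 without A115. Car2 was followed by Myl12a (0.995), Dap (0.991) and Rab31 (0.990), and Car4 by Bag5 (0.987), Gramd3 (0.978) and Mcoln2 (0.977). Car14 was followed by Tdrd7 (0.994), Nepn (0.994) and Fmod (0.992), Car5a by Gdpgp1 (0.996), Ppcs (0.995) and Tmbim6 (0.994), and Car12 by Ssbp2 (0.991), Alox12 (0.982) and Mlph (0.980). For Car12 the latter 2 values fell to 0.915 and 0.919 without A115. Car3 was followed by AK132533 (0.989) and Bnc2 (0.984), and Car8 by Trim23 (0.985), Nat1 (0.981) and Mtfr1 (0.974).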

How the data were processed

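Poly(A)-selected RNA of 8 livers and 8 kidneys was sequenced by 2 providers with 100-bp (HiSeq) or 101-bp (NovaSeq) paired reads. Per the labels and the study's methods, the authors trimmed reads with Trimmomatic, aligned them to mm10 with STAR 2.5.4b, removed alignments with a mapping quality below 10, and counted exon fragments of 32989 UCSC genes with Homer. The authors deposited FPKM (column names say RPKM) relative to each library's own total, and no counts; all values fell on steps of 0.5 fragment within 0.01, so fragments could be recovered. Since the deposited unit is not counts, the main test is on log FPKM, with limma-voom on the recovered fragments as an alternative; the study's own count test was not run.

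Genes with a mean above 0.5 fragments per 1000000 were tested per organ with limma 3.58.1 (R 4.3.3, trend) on log2(FPKM + 0.1), with Benjamini-Hochberg adjustment over all genes; the pseudocount understates changes of low genes. The contrast between organs was fitted over 16 libraries. Each n is a separate mouse. Single genes were also given an exact two-sided permutation test over 70 splits, whose smallest possible p is 0.029. Symbols of all 9 genes occurred once. Named genes were all 9 members, the 7 other family genes, the 3 smallest p of each list and organ (Cps1 was named after its values were seen), and for each member at or above 1 FPKM the 3 genes closest by Pearson r. A few genes that this rule names are not reported here. The members and lists were chosen with earlier results of these data known. On simulated data with 200 genes shifted by 1.5 (log2), limma found 172 in liver (11 others) and 84 in kidney (7 others). That shift is larger than any ADV-against-LD difference given here for a member within an organ. These counts therefore do not say how often differences of that smaller size would be found. Equal mouse numbers mark liver and kidney of the same animal; deviations from group means correlated between them at -0.024 to 0.553, above 0 in 7 of 8 mice. Bounds against 3 fragments cover counting error only. Alternatives were other pseudocounts (0.5 and 1), no filter, median-ratio scaling, quantile normalization, limma-voom, a mouse block, and leaving out each mouse. Sequences came from RefSeq.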

Additional observations from a re-analysis of the deposited data

Results flagged for a closer look

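In each group of 4 libraries, the highest and lowest values were set against Dixon's critical ratio for their distance from the nearest other value. The ratios were taken on the log2 scale used for the limma tests. The FPKM values printed beside them give the levels only, and ratios taken on FPKM itself can differ and were not used. Of 26 groups checked (Car1 in liver was left out), 3 passed it, where chance gives about 1 in 20. A91 was far above the other ADV livers for Car3 (2804 FPKM, ratio 0.888). A94 was far below the other ADV livers for Car8 (8.92 FPKM, ratio 0.844). L63 was far above the other LD kidneys for Car8 (2.19 FPKM, ratio 0.923). The causes were not tested.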

How the results depend on the processing

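Under other pseudocounts, no filter, median-ratio scaling, quantile normalization and limma-voom, 0 of the 5 liver genes tested, 0 of the 8 kidney genes and 0 of the 5 differences between organs passed the threshold, as in the values reported, and with the mouse as a replicate block 0 of the 5 differences passed; the block changed no call. Under these settings and the next, 114 values of the genes tested kept their direction and their side of the threshold, 11 changed sign and 1 newly passed the threshold. In kidney Car5a was 0.031 and 0.079 with pseudocounts of 0.5 and 1, and between organs Car5a was 0.16, 0.21 and 0.046 with those pseudocounts and with median-ratio scaling, and Car8 was -0.020 with quantile normalization. Leaving out A115 together with median-ratio scaling, chosen after seeing the data, gave 1 kidney gene past the threshold (Car15), with Car3 at -0.34, Car5a at 0.46 and Car14 at 0.30 in kidney, and Car5a at 0.70 and Car8 at -0.10 between organs. The causes were not tested.

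Leaving out each mouse in turn, 0 to 1 kidney genes passed (Car15, without A115). The kidney log2 differences ran from -0.0071 to 0.21 for Car2, -0.15 to 0.53 for Car3, -0.027 to 0.28 for Car4, -0.57 to 0.65 for Car5a, -0.21 to 0.078 for Car8, -0.33 to 0.077 for Car12, -0.44 to 0.50 for Car14 and -0.26 to 0.98 for Car15. Liver Car8 ran from -0.20 to 0.10 and liver Car5a from -0.29 to -0.042, and the difference between organs from -0.49 to 0.78 for Car5a, -0.22 to 0.23 for Car8, 0.47 to 1.22 for Car3 and -1.53 to -0.28 for Car14.

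Depth limits the members at the bottom of the range: Car4, Car12 and Car15 in liver rest on at most 16.5, 4 and 10 fragments per library, and Car1 in kidney on 0. The deposited scaling put the median liver gene at 0.096 (log2); median-ratio scaling put it at -0.0019 and quantile normalization at -0.027. No symbol was repeated, so no other choice of row could be tried.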
